A study of Mus musculus with 6 samples.

Results

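Integrins and cadherins are the main families of adhesion receptors on the cell surface. The 49 integrin and cadherin genes described here were found by symbol among the non-control spots of a mouse whole-genome array: integrin alpha and beta chains and numbered cadherins, with the endothelial cadherin Cdh5 left out. They comprise 26 integrin and 23 cadherin genes on 72 of 55681 probes, out of 35077 gene names in all. Expression was compared between the outer and the intermediate interzone of mouse embryos (gestation day 15.5), with 3 samples of each layer and 1 embryo per replicate. The labels give no genotype, strain or treatment for either layer. The interzone is the band of cells that marks a future joint between cartilage templates: the outer layer borders the cartilage on either side and encloses the intermediate layer.

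An integrin is a pair of 1 alpha and 1 beta chain that binds matrix proteins, or ligands on other cells, and connects them to actin through talin, kindlin and their partners. The alpha chain largely sets the ligand, and chains found on leukocytes form a set of their own. Classical cadherins bind cadherins of neighbouring cells and hold on to actin through catenins. In the limb, N-cadherin (Cdh2) is known from mesenchymal condensation, and cadherin-11 (Cdh11) from loose mesenchyme and the later synovial lining.

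Levels are log2 processed signals relative to the 75th percentile of their own array, so 0 equals that percentile, and differences are outer minus intermediate. Levels of different probes cannot be set against each other. The 75th percentile ranged over arrays from 47.4 (outer replicate 1) to 344 in scanner units. Outer replicate 1 had 35.6% of its spots well above background, and the other 5 arrays had 45.1% to 53.4%. A gene was tested where all 3 arrays of 1 or both layers measured its probe well above background. This held for 29 of the 49 members, of which 18 were measured on all 6 arrays. Outer replicate 1 missed the other 11, and outer replicate 3 also missed 2 of these, Itga2 and Itga2b. The samples are bulk RNA, in which fewer cells of a type and less RNA per cell cannot be told apart.

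In the main fit, which has no block for replicates, 1 integrin was called higher in the outer interzone, Itga10. This alpha chain of a collagen receptor of cartilage cells was 8.15-fold higher than in the intermediate interzone. Itga2b, the platelet alpha chain, Cdh13, the membrane-anchored T-cadherin, and Itga6, a laminin-binding alpha chain, fell, by 2.07, 1.14 and 1.03 on the log2 scale. The Itga2b difference is set mostly against background in the outer interzone. The direction for Itga6 depends on the probe, since its other probe differed by 1.08 and the mean of both by 0.02, and its call was lost once replicates were blocked (limma adjusted p = 0.0534). Thus limma called 4 of 29 tested members at adjusted p 0.05, where 4.05% of all 18003 tested genes were called. By direction, 1 member was called higher in the outer interzone against 1.57% of all genes, and 3 lower against 2.48%. The median difference of the 29 members was -0.17, beside 0.10 over all genes. With arrays scaled to their median, the scale of the authors' deposited table, these medians were -0.56 and -0.29. It also moved the calls over all genes to 158 higher and 937 lower in the outer interzone, beside 282 and 447, and those of members to 1 higher and 5 lower.

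The outer and intermediate arrays did not overlap for 12 of the 29 members, and over all genes this share was 27.1%. Among these 12, Itga2, Itga2b, Itga4, Itga7, Cdh8 and Cdh12 were not well above background on outer replicate 1. At an unadjusted p of 0.05, 12 members passed, and 21.1% of all genes did. Among genes measured on all 6 arrays, 6 of 18 members passed it, and 3019 of 14805 genes did. Same-numbered outer and intermediate samples shared deviations from their layer means, and with that number as a block limma called 6 members, where 9.09% of all genes were called. Those 6 were Itga10, Itga9 and Cdh11, higher in the outer interzone, and Itga7, Itga2b and Cdh13, lower.

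**Figure D1:**
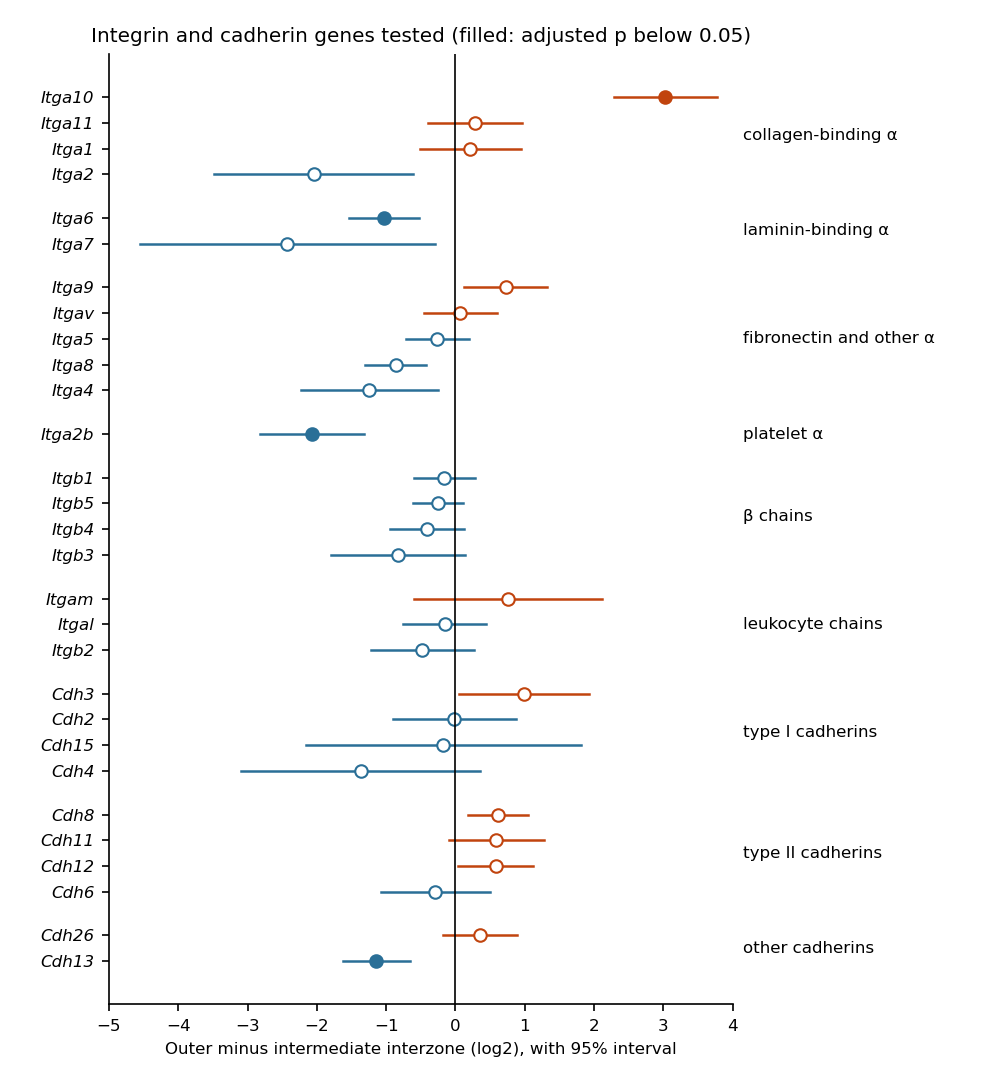
Difference between outer and intermediate interzone (log2, x axis) with its 95% interval for the 29 tested members, grouped by class. Filled points passed limma's adjusted p of 0.05: Itga10 lies at 3.03, and Itga2b, Cdh13 and Itga6 lie below 0.

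All 4 collagen-binding alpha chains, which pair with the beta-1 chain, were measured, and Itga10 was the only one called. Itga10 is known from chondrocytes, where it binds type II collagen. It stood at 3.17, 2.63 and 3.50 on the outer arrays, against -0.30, -0.06 and 0.59 on the intermediate arrays. Every outer array lay above every intermediate array by a wide gap. The means were 3.1 ± 0.44 in outer and 0.08 ± 0.46 in intermediate samples (SD, n = 3 each), 3.03 apart (SE 0.31, limma adjusted p = 0.00818). With slide as a block, or within the slide that held outer replicate 1 and the intermediate arrays, the difference rests on that 1 outer array, taken to vary as the other arrays in the fit do. It was 3.1 in both (limma adjusted p = 0.0168 and 0.0118). Leaving out any 1 array kept the call, with limma adjusted p between 0.00709 and 0.0425.

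Itga10 was read by 2 probes, which share 54 of their 60 bases and are thus no independent check of each other. Their first 30 bases are shown because the largest difference among the members rests on this 1 place, with no part set in capitals.
Itga10 probe used, chr3:96468377-96468436 (mm9, plus strand): agtccctcctggggactgtcatggtgagca
Itga10 other probe, chr3:96468383-96468442 (mm9, plus strand): tcctggggactgtcatggtgagcaaatggt
The other probe gave a difference of 3.02, beside 3.03 for the one used.

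The cartilage markers moved the same way as Itga10. Of 8 tested, 7 rose in the outer interzone (limma), among them Matn1, Snorc, Col9a1 and Col2a1 with differences of 6.0, 5.85, 4.28 and 3.19. Their summed level, on the linear scale in units of the 75th percentile, was 521 to 781 on the outer and 59.0 to 105 on the intermediate arrays. Col2a1 gave 53.7% or more of it on each array. Matn1 and Snorc were above background on 1 intermediate array each, so the sizes of their differences are set mostly against background, and the other 6 were measured on all arrays. The part of cartilage cells in the Itga10 result was not tested.

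The other collagen-binding chains were not called. Itga11, a fibrillar collagen receptor of fibroblasts, averaged 5.29 ± 0.26 in outer and 5.0 ± 0.50 in intermediate samples (SD, n = 3 each), a difference of 0.29 with a 95% interval of -0.39 to 0.96. Itga1, which prefers basement-membrane collagen, averaged 0.66 ± 0.31 in outer and 0.45 ± 0.53 in intermediate samples, a difference of 0.22 (interval -0.51 to 0.94). Its other tested probe gave 0.88 (limma adjusted p = 0.270 per probe) and the mean of both 0.55. The sign of both chains turned under median scaling, to -0.11 and -0.18. Itga2, a collagen receptor of platelets and epithelia, stood at -4.14, -3.07 and -5.48 on the outer arrays and at -1.57, -2.20 and -2.79 on the intermediate arrays. These groups did not overlap, but the outer value was above background on 1 array only. Its difference of -2.05 (SE 0.61, limma adjusted p = 0.122) is thus set mostly against background and its size is uncertain, and normexp background correction gave -0.73 (limma adjusted p = 0.0886). Without outer replicate 2, the array that measured it, limma adjusted p was 0.0372, with no outer array above background.

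Of the laminin-binding alpha chains, Itga6 and Itga7 were tested and Itga3 was not, being above background on 2 outer and 2 intermediate arrays. Itga6 pairs with the beta-1 or beta-4 chain. On the probe used it stood at 3.82, 4.23 and 4.0 on the outer arrays, against 5.13, 4.72 and 5.30 on the intermediate arrays. The outer values lay below every intermediate one. The difference was -1.03 (SE 0.22, limma adjusted p = 0.0490). This call was at the edge of the threshold: limma adjusted p was 0.0534 once replicates were blocked, 0.0609 once slides were, 0.0735 within the shared slide, and above 0.05 without any 1 array other than outer replicate 2 (0.0582 to 0.18).

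The 2 Itga6 probes moved in opposite directions. Both were above background on all 6 arrays, and their starts lie 4123 bases apart on chromosome 2. The other probe, which the array design assigns to a different transcript record, stood at 4.37, 3.89 and 3.78 on the outer arrays and at 3.08, 3.23 and 2.51 on the intermediate arrays. Here each outer array lay above each intermediate one. Fitted per probe, which called 3.48% of all 23884 tested probes, the differences were -1.03 (limma adjusted p = 0.0537) for the probe used and 1.08 (limma adjusted p = 0.0788) for the other, so neither passed. The mean of both probes gave a difference of 0.02. The stretches below show the 2 places, bases 18 to 47 of the probe used and 1 to 30 of the other, and the capitals mark a GTT repeat at bases 25 to 39 of the probe used.
Itga6 probe used, chr2:71694756-71694815 (mm9, plus strand): aggtcttGTTGTTGTTGTTGTTctgacctt
Itga6 other probe, chr2:71690633-71690692 (mm9, plus strand): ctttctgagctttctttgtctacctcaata
GTT repeated 5 times occurs, on the printed strand, in 8 of 55672 probes. A repeat of 1 to 3 bases spanning at least 15 bases was found in 0.489% of all probes and in 2 of the 29 probes used for members, those of Itga6 and Itgam.

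**Figure D2:**
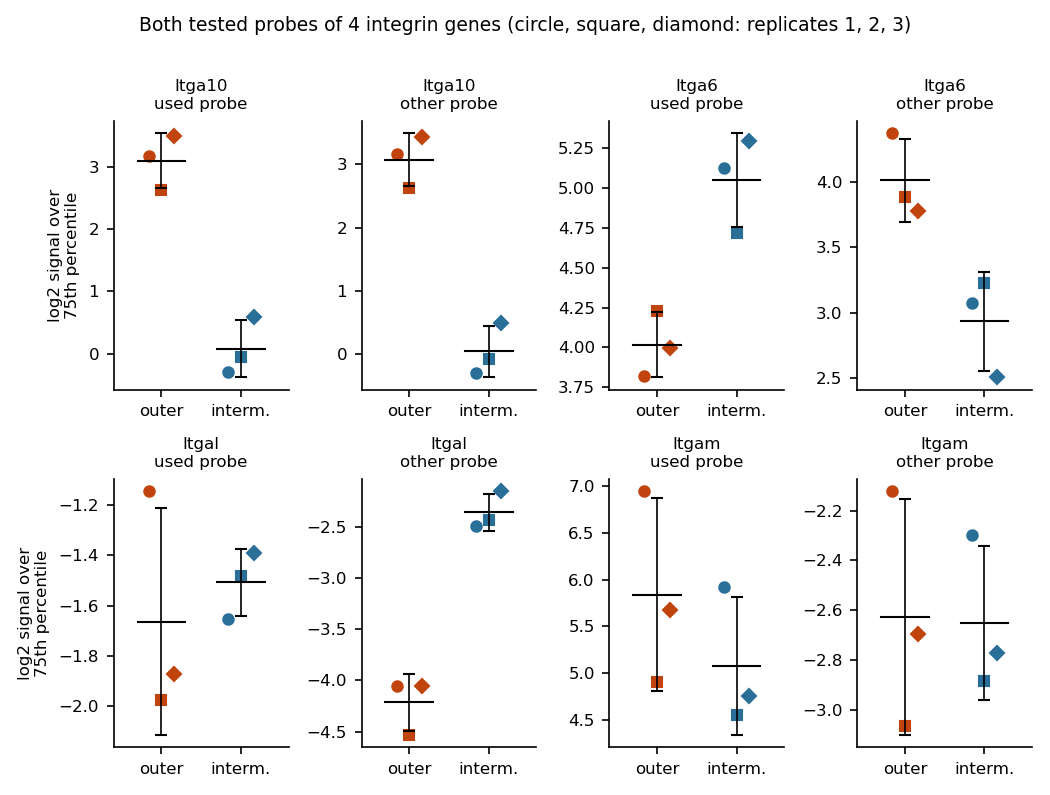
Level per array (log2 signal over the 75th percentile, y axis) for both tested probes of Itga10, Itga6, Itgal and Itgam, outer left and intermediate right, with bars for mean and SD (n = 3). The 2 Itga10 probes show the same pattern, the 2 Itga6 probes show opposite ones, and for Itgal only the other probe separates the layers, with its outer values not well above background.

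Itga7, the laminin receptor of muscle fibres, had the most negative difference of all tested members, -2.43 with SE 0.90, and did not pass (limma adjusted p = 0.189). It stood at -3.04, 0.19 and -0.24 on the outer arrays, against 0.24, 1.69 and 2.25 on the intermediate arrays. The groups did not overlap, but within each layer replicate 1 was the lowest by over 1 log2 unit. With the replicate block it passed (limma adjusted p = 0.0365). The slide block and the shared slide gave -4.44 (limma adjusted p = 0.0210 and 0.0229), which rests on outer replicate 1 alone, an array that did not measure it above background. Without that array the difference was -1.42 (limma adjusted p = 0.260).

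The skeletal muscle markers varied between replicates in the same way. Of 5 tested, limma called 0, and 0 passed an unadjusted p of 0.05. The unmoderated model and the replicate block also called 0, and the slide block called 1. The lowest adjusted p belonged to Acta1 and Ckm, with differences of -1.73 and -0.73. Their summed level was 1.71, 26.0 and 29.8 on the outer arrays and 5.32, 24.8 and 57.4 on the intermediate arrays, lowest in replicate 1 of both layers. Myf5 was not above background on any array. Acta1, Myog, Myh3 and Ckm were above it on 2 outer arrays each, so the low outer end rests partly on background readings. Cdh15, M-cadherin of muscle precursors, stood at -2.46, -1.60 and -0.72 on the outer arrays and at -3.30, -0.92 and -0.05 on the intermediate arrays. It too was lowest in replicate 1 of both layers, but outer replicate 1 did not measure it above background. Its groups overlapped fully, with a difference of -0.17 (95% interval -2.16 to 1.81). The part of muscle in the Itga7 and Cdh15 values was not tested.

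**Figure D3:**
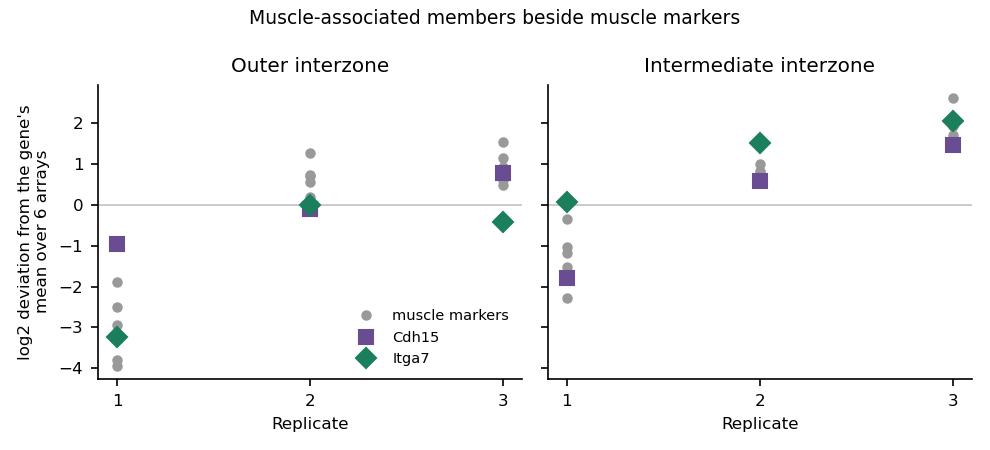
Deviation of each gene from its own mean over 6 arrays (log2, y axis) by replicate number, outer interzone left and intermediate interzone right, for Cdh15, Itga7 and the 5 tested muscle markers. Replicate 1 holds the lowest value of Cdh15 and of Itga7 in each layer, as it does for the 5 markers, whose summed level there was 1.71 (outer) and 5.32 (intermediate). Outer replicate 1, the dimmest array, did not measure Cdh15 or Itga7 above background.

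The alpha chains that bind fibronectin and other ligands were all tested, 5 of 5, and limma called 0, with 3 at an unadjusted p under 0.05. The replicate block called 1 and the unmoderated model 0. Itga8, a receptor for nephronectin and other RGD ligands, came nearest to the threshold. It stood at 0.86, 0.77 and 0.40 on the outer arrays, against 1.45, 1.52 and 1.65 on the intermediate arrays. The groups did not overlap, and the difference was -0.86 (SE 0.19, limma adjusted p = 0.0540). Under median scaling it passed, at -1.25 (limma adjusted p = 0.0165). It also passed with normexp, at -0.69 (limma adjusted p = 0.0364), and among genes measured on all 6 arrays (limma adjusted p = 0.0495). The replicate block did not call it (limma adjusted p = 0.0511), and it did not pass without any 1 array.

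Itga4, which binds fibronectin and VCAM-1 and is also carried by leukocytes, stood at -2.30, -1.35 and -1.59 on the outer arrays, against -0.80, -1.06 and 0.35 on the intermediate arrays. Those groups did not overlap either, and the difference was -1.24 (SE 0.42, limma adjusted p = 0.157). Itga9, a receptor for tenascin-C and other ligands, averaged 3.56 ± 0.37 in outer and 2.84 ± 0.30 in intermediate samples (SD, n = 3 each). Its difference of 0.72 did not pass without a block (limma adjusted p = 0.172) and did with the replicate block (limma adjusted p = 0.0467). Itga5, the classical fibronectin receptor chain, differed by -0.26 (95% interval -0.71 to 0.19). Itgav, the vitronectin receptor chain that also activates latent TGF-beta, differed by 0.07 (interval -0.45 to 0.60), and by -0.32 under median scaling. The other Itgav probe gave -0.47 (limma adjusted p = 0.280 per probe), so that Itga6 and Itgav were the 2 of 10 members with several tested probes whose probes had opposite signs.

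Itga2b pairs with the beta-3 chain as the fibrinogen receptor of platelets and their precursors. It stood at -3.91, -3.52 and -4.69 on the outer arrays, against -1.97, -1.72 and -2.23 on the intermediate arrays. The groups were far apart, but outer replicate 2 was the only outer array with signal well above background. The difference was -2.07 (SE 0.32, limma adjusted p = 0.0220), set mostly against background, and normexp background correction gave -0.72 (limma adjusted p = 0.0318). With the slide block limma adjusted p was 0.0573, within the shared slide, on an outer array that did not measure it, 0.0213, and without outer replicate 3 or any intermediate array 0.0588 to 0.0784.

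Of the platelet markers, 3 of 8 were tested and Pf4 was called, with a difference of -3.33 (limma adjusted p = 0.0387). Gp9 differed by -1.35 (limma adjusted p = 0.275), and passed once replicates were blocked (limma adjusted p = 0.0278). Gp1bb lay the other way, at 0.90 (limma adjusted p = 0.303, and 0.0448 with the slide block at 1.84). Gp1ba, Gp5 and Gp6 were not above background on any array. The summed level of the tested markers was 1.34 to 5.76 on the outer and 17.7 to 32.5 on the intermediate arrays, with 65.5% or more of it from Pf4 on each array. The part of platelets or of other blood cells in the Itga2b result was not tested.

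Beta chains outside the leukocyte set were called in 0 of 4 tests by limma, with 0 at an unadjusted p under 0.05. The unmoderated model, the replicate block and the slide block also called 0. Itgb1, the shared partner of the collagen- and laminin-binding alpha chains, averaged 3.57 ± 0.23 in outer and 3.73 ± 0.13 in intermediate samples (SD, n = 3 each). Its difference was -0.16 (95% interval -0.60 to 0.28). Itgb5, a vitronectin receptor chain, differed by -0.25 (interval -0.61 to 0.11), with no overlap between the groups. Itgb3, the partner of Itga2b and Itgav, differed by -0.83 (interval -1.79 to 0.14). Itgb4, the hemidesmosome chain that pairs with Itga6, differed by -0.41 (interval -0.94 to 0.12). Itgb6 and Itgb8, partners of Itgav known to activate TGF-beta, were not well above background on any array.

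**Figure D4:**
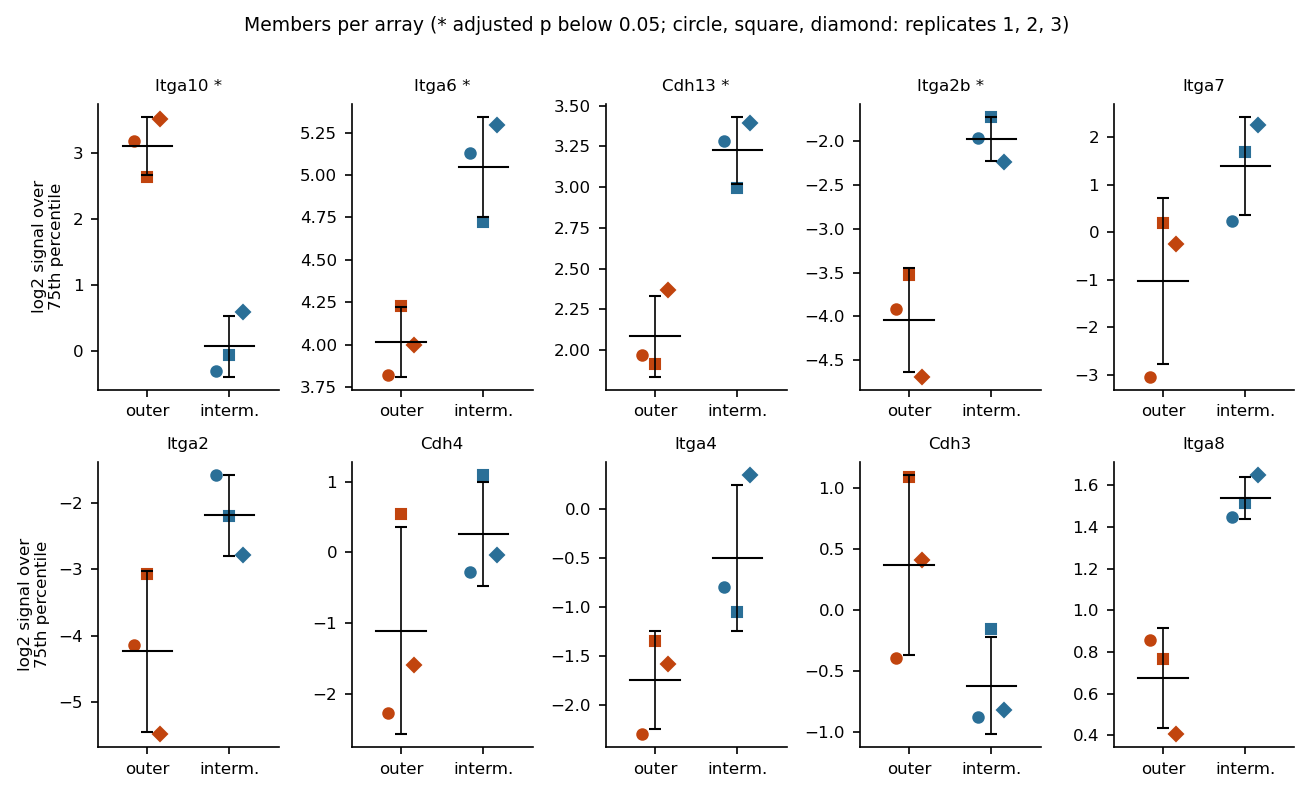
Level per array (log2 signal over the 75th percentile, y axis) of the 4 called members, marked by an asterisk, and the 6 uncalled members with the largest differences, outer left and intermediate right, with bars for mean and SD (n = 3). The layers are separate for all 4 called members, overlap for Cdh4 and Cdh3, and do not overlap for Itga7, Itga2, Itga4 and Itga8.

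Few leukocyte integrin chains were measured. Itgb2, a beta chain of this set, Itgal of LFA-1 and Itgam of Mac-1 were tested, 3 of 7. Itgad, Itgae and Itgax were not above background on any array, and Itgb7 was so on 1 outer and 2 intermediate arrays. Limma called 0 of the 3, with 0 at an unadjusted p under 0.05, and the unmoderated model and both blocks called 0. Itgb2 averaged -2.28 ± 0.42 in outer and -1.80 ± 0.48 in intermediate samples (SD, n = 3 each), a difference of -0.48 (95% interval -1.22 to 0.27).

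Leukocyte markers fell in the outer interzone over the same arrays. All 14 were tested, and limma called 10 lower in the outer interzone, among them Cx3cr1, Mrc1, C1qa and Adgre1 at differences of -3.93, -3.83, -3.78 and -3.78. Their median difference was -3.13, beside -0.16 for the 3 leukocyte integrin chains on the probes used. That -0.16 is the value of the Itgal probe used, and the other tested Itgal probe gave -1.85. The Itgam probe used holds a run of CA repeats, and what it bound was not tested. The summed marker level was 9.24 to 28.0 on the outer and 89.6 to 154 on the intermediate arrays. Cx3cr1, Mrc1, C1qa and Adgre1 were above background on 2 outer arrays each, so the sizes of their differences rest partly on background readings. Ptprc, the pan-leukocyte phosphatase CD45, differed by -1.45 and was not called (limma adjusted p = 0.0759).

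The result for Itgal and Itgam depended on the probe. The Itgal probe used stood at -1.14, -1.98 and -1.87 on the outer arrays and at -1.65, -1.48 and -1.39 on the intermediate arrays, which overlap, and gave a difference of -0.16. The sign turned with slide as a block, to 0.36. The other tested Itgal probe was above background on 0 outer and 3 intermediate arrays, with levels of -4.05, -4.54 and -4.05 on the outer and -2.49, -2.43 and -2.15 on the intermediate arrays. For a cautious comparison, each outer reading below its array's lowest signal well above background was raised to that signal. The values of this probe were then 1.97-fold lower in the outer interzone on average. The fit to the readings themselves, not to these raised values, gave limma adjusted p = 0.0111 per probe. A reading not well above background can still lie above that lowest signal, so the fold is no strict lower limit. On outer replicate 1 that lowest signal, -1.82, lay above the intermediate mean of -2.36, so this array by itself could show no fall.

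The Itgam probe used stood at 6.95, 4.90 and 5.67 on the outer arrays and at 5.92, 4.55 and 4.75 on the intermediate arrays. Those groups overlap, and the difference was 0.76 (95% interval -0.59 to 2.12). The other tested Itgam probe stood at -2.12, -3.06 and -2.69 on the outer and at -2.30, -2.88 and -2.77 on the intermediate arrays, a difference of 0.02. The first 30 bases of these probes and of the 2 tested Itgal probes are shown because their readouts differ, and the capitals mark a run of CA repeats.
Itgam probe used, chr7:135261755-135261814 (mm9, plus strand): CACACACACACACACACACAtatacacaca
Itgam other probe, chr7:135260275-135260334 (mm9, plus strand): aagttcacaatcctgtaccactcattgtgg
Itgal probe used, chr7:134477160-134477219 (mm9, plus strand): acttgagagccctggctctgaccagcttca
Itgal other probe, chr7:134477064-134477123 (mm9, plus strand): tggggaagagaccaaagatatgggctgtct
CA repeated 10 times occurs, on the printed strand, in 22 of 55672 probes. All 22 were well above background on all 6 arrays, against 33.8% of all probes. What this Itgam probe bound was not tested.

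Cdh13 was the only cadherin called. It encodes T-cadherin, which is held by a lipid anchor, has no catenin-binding tail and is known from endothelium and muscle. It stood at 1.97, 1.92 and 2.37 on the outer arrays, against 3.29, 3.00 and 3.40 on the intermediate arrays. All outer values lay below all intermediate values. The means were 2.08 ± 0.25 in outer and 3.23 ± 0.21 in intermediate samples (SD, n = 3 each), a difference of -1.14 (SE 0.20, limma adjusted p = 0.0322; probe at chr8:121837969-121838028, mm9). With the slide block the difference was -1.26 (limma adjusted p = 0.0561), within the shared slide limma adjusted p was 0.0550, and leaving out any 1 of the 6 arrays gave 0.0520 to 0.140.

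Endothelial markers fell too. Of 10 tested, 7 were called lower by limma, with Emcn, Tek, Tie1 and Cdh5 at differences of -2.93, -2.92, -2.67 and -2.40, and 0 higher. Kdr, the VEGF receptor, differed by 0.82 and was not called (limma adjusted p = 0.231). The summed level of the 10 markers was 54.4 to 77.3 on the outer and 94.8 to 114 on the intermediate arrays. Kdr gave the largest part of it on average, 19.0% or more on each array, so the sum mixes its difference with the fall of the others. Tek was above background on 1 outer array only, and Emcn and Tie1 on 2, so the Tek difference is set mostly against background. The part of vessels in the Cdh13 and Itga6 results was not tested.

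Among type I cadherins, the classical kind that includes E-, N- and P-cadherin, limma called 0 of 4, with 1 at an unadjusted p under 0.05, and the unmoderated model and both blocks called 0. Cdh2 averaged 1.70 ± 0.49 in outer and 1.72 ± 0.62 in intermediate samples (SD, n = 3 each), a difference of -0.02 (95% interval -0.91 to 0.87). It was highest in replicate 2 of both layers. Cdh4, R-cadherin of nerve and muscle, stood at -2.27, 0.54 and -1.59 on the outer arrays and at -0.27, 1.10 and -0.04 on the intermediate arrays. The groups overlapped through replicate 2, the difference was -1.37 (SE 0.73, limma adjusted p = 0.333), and without outer replicate 2 it was -2.19 (limma adjusted p = 0.0460).

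Cdh3, P-cadherin of basal epithelium, stood at -0.39, 1.09 and 0.41 on the outer arrays and at -0.88, -0.16 and -0.82 on the intermediate arrays. The groups overlapped at outer replicate 1, and the difference was 0.99 (SE 0.40, limma adjusted p = 0.215). Cdh1, the epithelial cadherin, was not above background on any array. Limma called 0 of 6 tested epithelial markers, with 0 at an unadjusted p under 0.05 and 0 in the unmoderated model and both blocks. Krt18 and Krt8 had the lowest adjusted p in that list, with differences of 2.18 and 1.09, and Epcam was not above background on any array. The summed epithelial level was 2.33 to 7.03 on the outer and 1.11 to 5.62 on the intermediate arrays.

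Type II cadherins are a subfamily known from mesenchyme and brain, and 4 of 12 were tested. Limma called 0, with 2 at an unadjusted p under 0.05, the unmoderated model and the slide block called 0 and the replicate block called 1. Cdh11 stood at 2.83, 3.61 and 2.95 on the outer arrays and at 2.25, 2.99 and 2.37 on the intermediate arrays. The groups overlapped, yet each outer array lay above the intermediate array of the same number, by a difference of 0.59 on average (limma adjusted p = 0.298 without a block and 0.0498 once replicates were blocked). Under median scaling the Cdh11 difference was 0.20.

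Cdh8, a cadherin of neurons, averaged -1.54 ± 0.22 in outer and -2.16 ± 0.12 in intermediate samples (SD, n = 3 each), a difference of 0.62 (limma adjusted p = 0.121), and of 0.26 with normexp. Cdh12, another neuronal cadherin, differed by 0.58 (limma adjusted p = 0.206), and by 0.08 with normexp. Neither had overlapping groups, and outer replicate 1 measured neither above background. Cdh6, K-cadherin of kidney and neural crest, differed by -0.29 (95% interval -1.07 to 0.49). Cdh26, an atypical cadherin, differed by 0.35 (interval -0.18 to 0.88), and by -0.04 under median scaling.

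The 13 cadherins that were not tested were mostly at background. Cdh10 was above it on 1 outer and 2 intermediate arrays and Cdh22 on 1 of each. The other 11 were not above it on any array: Cdh1, the type II cadherins Cdh7, Cdh9, Cdh18, Cdh19, Cdh20 and Cdh24, kidney Cdh16, intestinal Cdh17, Cdh23 of hair-cell tip links, and Cdh29. Cdh19 is known from Schwann cell precursors, and 2 of 8 Schwann and nerve markers were tested. Of these S100b was called higher in the outer interzone by 2.59 and Nefl lower by a difference of -2.53 (limma). S100b is also known from cartilage cells.

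Many members share a chromosome, and a few lie close together. Chromosome 8 holds 7 cadherins and Itgb1, chromosome 2 holds 5 integrins and 3 cadherins, and chromosome 15 holds 5 cadherins and 2 integrins. Itgal, Itgam, Itgax and Itgad lie within 874 kb on chromosome 7, of which 2 were tested. Itga1 and Itga2 lie within 199 kb on chromosome 13, and their differences were 0.22 and -2.05.

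The proteins that connect these receptors to actin were mostly measured and mostly not called. Of 23 tested integrin adaptors and signalling proteins, limma called 1 higher and 2 lower in the outer interzone (5 in all with the replicate block), and the median difference was -0.36, beside 0.10 over all genes. Tns2, a tensin that binds integrin beta tails, stood at 2.52, 2.22 and 2.30 on the outer arrays, against 1.44, 1.41 and 1.24 on the intermediate arrays, a difference of 0.98 (limma adjusted p = 0.0288). Parvg, the parvin of blood cells, differed by -2.69 (limma adjusted p = 0.0120), with 1 outer array above background. Parvb, the beta-parvin, was measured above background on 0 of 3 outer arrays. With readings raised as for the Itgal probe, it was 2.38-fold lower on average in the outer interzone, again no strict lower limit. Outer replicate 1 by itself could show no fall here either, and the fit to the readings gave limma adjusted p = 0.0330. Of the 23, 19 were lower and 4 higher in the outer interzone, where 39.9% of all genes were lower. Among widely expressed ones, Tln1, Ilk, Fermt2 and Ptk2 differed by -0.37, -0.22, -0.13 and -0.01, and none was called. Vcl, vinculin, differed by -0.93 and was not called either (limma adjusted p = 0.124).

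Of 9 tested catenins and cadherin adaptors, limma called 0, with 1 at an unadjusted p under 0.05, and the unmoderated model and both blocks also called 0. Beta-catenin, Ctnnb1, averaged 4.21 ± 0.15 in outer and 4.14 ± 0.11 in intermediate samples (SD, n = 3 each). Its difference was 0.07 (95% interval -0.33 to 0.46). Afdn, the afadin of adherens junctions, and Ctnnd2, a neuronal delta-catenin, had the lowest adjusted p, with differences of -0.76 and -1.01.

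Of 23 tested integrin ligands, limma called 2 higher and 3 lower in the outer interzone (9 in all with the replicate block), at a median difference of -0.18. Edil3, an RGD protein that binds Itgav receptors, and Thbs1, thrombospondin-1, rose by 2.34 and 1.55 on the log2 scale (limma adjusted p = 0.0159 and 0.00821). Icam2, an endothelial ligand of LFA-1, and Fbln5, an RGD protein of elastic fibres, fell, with differences of -2.23 and -1.33 (limma adjusted p = 0.0220 and 0.0378). The laminin chain Lama4 fell as well, at -0.91 (limma adjusted p = 0.0314), and Lama2, of the muscle laminin that Itga7 binds, stood at -1.12 (limma adjusted p = 0.0504, or 0.0336 once replicates were blocked). Fibronectin, Fn1, differed by -0.41 and tenascin-C, Tnc, by 0.18, and neither was called.

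**Figure D5:**
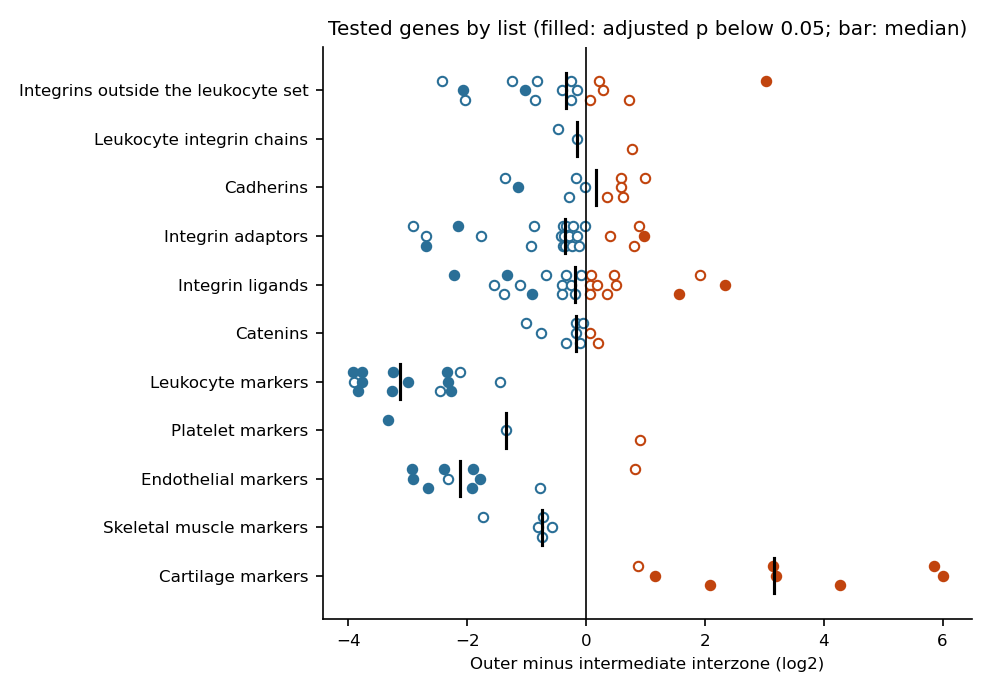
Difference between outer and intermediate interzone (log2, x axis) of every tested gene in 3 groups of members, 3 lists of partners and 5 marker lists, with filled points for genes that passed limma's adjusted p of 0.05 and bars at the medians. Leukocyte markers centre at -3.13 and cartilage markers at 3.17, while the 3 leukocyte integrin chains lie between -0.48 and 0.76 on the probes used. The other tested probes of Itgal and Itgam, not shown here, gave -1.85 and 0.02, and the Itgam probe used holds a run of CA repeats.

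Of 7 joint markers tested, limma called Wnt4 and Erg higher in the outer interzone, by 3.41 and 0.95, and Gdf6 lower, at -1.77. Gdf5, the joint ligand that marks the whole interzone, differed by -0.0034 between the layers. Its outer and intermediate levels overlapped.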

How the data were processed

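Total RNA of outer and intermediate interzone (3 embryos each) was amplified, labelled with Cy3 and hybridised to one-colour Agilent arrays, per the labels' protocols. No source used here gives the method of separating the layers. The deposited scanner files name, per the file headers, Feature Extraction as their source (10.7.3.1) and hold for each spot a background-subtracted signal intensity and a flag for spots well above background. Partek 6.11.0321 stands in the submitters' processing notes with no step named. The authors' deposited table holds the same intensity scaled to each array's median. Positions are the files' own, in build mm9, without exon or UTR annotation.

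Spots of 1 probe were averaged as log2 intensity from the deposited files, minus each array's 75th percentile (Python 3.11.15, pandas 2.3.3). Of 55681 probes, 9 that lacked a value on at least 1 array were left out. The brightest tested probe stood for its gene, over 18003 genes. limma 3.58.1 (R 4.3.3, lmFit with eBayes, two-sided) compared the layers, p-values were adjusted over all of these genes by Benjamini-Hochberg, and the threshold was 0.05. The fit was run on simulated arrays with added differences larger than that of any member, and without replicate or slide effects. That run cannot show how well differences of the size called here are found. No spot was saturated, and 3 arrays per layer limit the precision.

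Members and lists were chosen with earlier results of these data known. All members are named, and from each list up to 4 called genes by size of difference, or the 2 with the lowest adjusted p where none was called. Other genes (Tln1, Ilk, Fermt2, Ptk2, Vcl, Ctnnb1, Fn1, Tnc, Lama2, Lama4, Kdr, Ptprc and Gdf5) were chosen after their values were seen. What a shared replicate number means is not stated in the labels. With layer means removed, same-numbered outer and intermediate arrays correlated at 0.563, 0.480 and 0.372. The main fit has no block and so ignores any such pairing. The replicate block takes the numbers to pair the samples, and its calls are given beside those of the main fit. Slide 1 held outer replicate 1 and all intermediate arrays, and slide 2 the other 2 outer arrays, so a slide-block difference rests on outer replicate 1.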

Additional observations from a re-analysis of the deposited data

How the results depend on the processing

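Integrins and cadherins called higher and lower in the outer interzone numbered 1 and 3. They numbered 0 and 0 without a filter on dim probes, where limma called 0 genes in all and 8 members passed an unadjusted p of 0.05, and 0 and 0 in the unmoderated model, with 7 members at that p. Median scaling and the authors' deposited values gave 1 and 5, quantile normalization 1 and 1, the slide block 1 and 1, and the replicate block 3 and 3, but 1 and 0 when that block was set on quantile-normalized values (chosen after seeing the data). Leaving out 1 array gave 1 higher and 0 to 4 lower: 0 without outer replicate 3 or any intermediate array, 1 without outer replicate 1 and 4 without outer replicate 2. Itga10 passed in 16 of the 18 alternatives that could give it a value, Itga2b in 9 of 17, Cdh13 in 6 of 18 and Itga6 in 5 of 18. These alternatives are not independent, and some repeat the same values. The authors' values repeat median scaling, and for Itga2b and Cdh13 the mean of tested probes repeats the main difference. Itga2b had no value with the filter on all 6 arrays. Partner genes called higher (3) and lower (5) numbered 0 and 0 without a filter and in the unmoderated model, and 0 and 0 with the block on quantile-normalized values. The lower ones were 3 under quantile normalization, 11 under median scaling and the authors' values, 8 with normexp and 10 with the replicate block. Leaving out 1 array gave 1 to 3 higher and 0 to 8 lower, with 0 lower without outer replicate 3 or intermediate replicate 1 or 3.

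Signs turned for uncalled members, and for Itga6. Under median scaling and the authors' values the differences were -0.038 (Cdh26), -0.18 (Itga1), -0.11 (Itga11) and -0.32 (Itgav). Cdh2 reached 0.0019 with normexp. The mean of probes gave 0.022 for Itga6 and -0.20 for Itgav, and their other probes alone (a fit added after seeing the data) 1.08 and -0.47. The slide block and slide 1 alone gave 0.36 for Itgal and 0.047 for Itgb1. Leaving out 1 array spanned -1.11 to 0.51 for Cdh15, -0.29 to 0.32 for Cdh2, -0.61 to 0.011 for Cdh6, -0.089 to 0.39 for Itga1 and -0.042 to 0.26 for Itgav. The cause was not tested. Over 511 values of tested members in 18 alternatives, 438 kept direction and side of the threshold. Most of these values belong to the 25 uncalled members, which kept their side by staying uncalled. The count thus says little about how well the calls held. Outer replicate 1, the dimmest array, missed 11 of 29 tested members, which limits what these could show.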
